A study of Arabidopsis thaliana with 10 samples.

Results

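The comparison described here is between whole shoots of Arabidopsis thaliana after 12 hr of dexamethasone (DEX) and shoots at 0 hr. It uses 4 of the 10 arrays of a time course, namely the 2 arrays labelled 12 hr and the 2 labelled 0 hr, chosen by those labels alone. All plants were shr-2 mutants with the transgene pSHR:SHR-GR, so the 0 hr controls share both the mutation and the transgene. The remaining arrays are pairs from 3, 6 and 24 hr of DEX and serve to show which differences at 12 hr were carried over from earlier times. Plants grew at 22 °C on 1/2 MS medium in cycles of 16 h of light and 8 h of dark, and 10 µM DEX was given at 10 days after germination, or at 9 days for the 24 hr group. No array of mock-treated plants was analysed here, so DEX, handling, age and time of day cannot be told apart in any comparison with 0 hr.

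SHORT-ROOT (SHR), a member of the GRAS family of transcription factors, moves from the vascular cylinder into the neighbouring layer and, with SCARECROW, sets the identity of the root endodermis. In shoots it is known for its part in bundle sheath formation and leaf growth. Fused to the glucocorticoid receptor (GR), the protein is held outside the nucleus until DEX, a synthetic steroid, is added. The SHR promoter drives the fusion, so only part of the shoot's cells make it, while the arrays read the RNA of whole shoots. In such bulk tissue, fewer cells of a type and less RNA per cell cannot be told apart.

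Affymetrix ATH1 arrays gave 1 MAS5 signal for each probe set, a group of short probes that read a single transcript or a few similar ones. Median signals of the 10 arrays ran from 181.8 to 191.7. The 2 arrays of a group correlated across probe sets at 0.9858 to 0.9909, and 12 hr replicate 1 was slightly closer to a 24 hr array (0.9906) than to its own partner (0.9900). The shoot markers RCA and PRK, which encode Calvin cycle proteins, were among the bright transcripts on all 4 arrays and did not pass the test. Of 3 measured root markers, PYK10 read 9091 and 9689 at 0 hr and 9683 and 10883 at 12 hr, EXPA18 lay between 46.8 and 85.2, and EXPA7 at or below 18.4, and none of the 3 passed. The ratio of 3' to 5' signal of GAPDH, a sign of RNA integrity, was 2.13 and 2.28 at 0 hr and 2.04 and 2.50 at 12 hr. The same ratio of actin was far higher on all 4 arrays, at 24.7 and 21.5 at 0 hr and 21.5 and 25.1 at 12 hr, and that of ubiquitin was 2.66 and 2.70 against 2.56 and 2.81. No probe set is named for SHR itself, so its transcript could not be used to check the labels.

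Named genes that were higher at 12 hr than at 0 hr included genes of energy shortage, of touch and calcium responses and of jasmonate metabolism. Named genes that were lower included 2 expansins and an endoglucanase of the cell wall, an inhibitor of blue-light receptors and an asparaginase. Of 22746 probe sets tested, 364 (1.6%) passed limma's test at an adjusted p below 0.05. Higher signals at 12 hr were found for 289 (1.27%) and lower signals for 75 (0.33%). Changes of at least 2-fold were called for 88 (0.387%) that rose and 10 (0.044%) that fell. The probe table names a single gene for 174 of the 364 and does not list 185, so the genes named below stand for less than the whole response. For comparison, both 12 hr arrays lay above both 0 hr arrays for 19.3% of all probe sets and below them for 26.4%, so separation of the 2 groups alone was common.

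Most of what was called at 12 hr had been called in the same direction at 3 or 6 hr. Leaving aside 11 reversed probe sets, which were called lower at 3 hr and higher at 6 and 12 hr, this held for 319 of the 364, of which 251 were higher and 68 lower; these are called carried over. Against 0 hr, 8.22% of probe sets were called at 3 hr (3.91% higher, 4.31% lower), 9.36% at 6 hr (5.17% higher, 4.19% lower) and 0.958% at 24 hr (0.717% higher, 0.242% lower). All these comparisons use the same 2 control arrays, so a call shared between them is no independent check. Of the 251 higher ones, 110 had been called at 3 and 6 hr, 136 at 6 hr without 3 hr, and 5 at 3 hr without 6 hr. Another 34 were newly called at 12 hr, 27 higher and 7 lower.

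**Figure D1:**
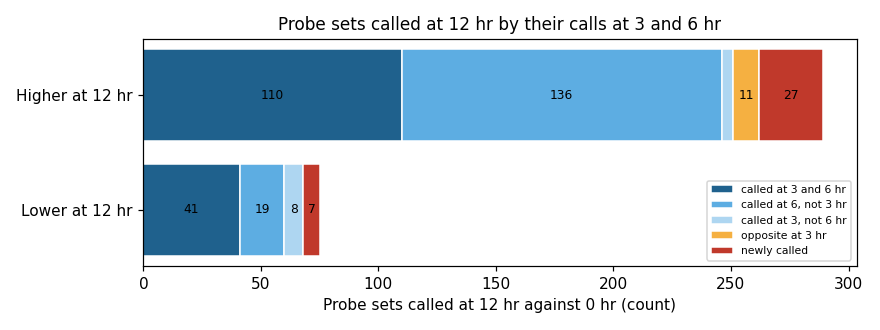
Number of probe sets called at 12 hr against 0 hr, split by whether they were called higher or lower (rows) and by their calls at 3 and 6 hr (colours; the unlabelled segment holds 5). Carried-over calls make up 251 of 289 higher and 68 of 75 lower probe sets, and the newly called ones are 27 and 7.

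Levels at 12 hr were set against the other times for all called probe sets. Over the 289 probe sets called higher, the median log2 fold change against 0 hr went from 0.26 at 3 hr to 1.15 at 6 hr, and stood at 0.76 by 12 hr and 0.49 by 24 hr, while the median of all probe sets stayed between -0.05 and -0.03. In the direct comparison of 12 hr with 6 hr, in which 2.39% of probe sets were called (0.712% higher, 1.68% lower at 12 hr), 115 of the 289 were lower at 12 hr, 13 were higher and 161 did not pass. Of the 289, 126 were also called higher at 24 hr, and 47 had been called higher at 3, 6, 12 and 24 hr. The 75 lower probe sets had medians of -0.52, -0.63, -0.54 and -0.29 at the 4 times, and 13 of them were also called lower at 24 hr. Little separated 12 hr from 24 hr, with 26 probe sets (0.114%; 0.022% higher and 0.0923% lower at 24 hr) called, 15 of them among the 289 and lower at 24 hr.

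Genes that respond to sugar starvation and darkness, under the energy-sensing kinase SnRK1, included the largest rises of the comparison. AT2G20670, a gene of the DUF506 family induced when sugar runs short, read 269 and 260.5 at 0 hr and 1707 and 1499.7 at 12 hr. The groups were far apart, and the log2 fold change was 2.53 ± 0.10 (SE, n = 2 arrays per group; limma adjusted p = 4.93e-07), a 5.76-fold rise on the scale of signal plus 16 that is used for all fold changes here. Its level had been higher at 6 hr, with a mean of 2758, and had fallen by 0.78 on the log2 scale by 12 hr (adjusted p = 0.00178). AT3G15450, an aluminium-induced-like protein known as a dark-response marker, read 575 and 637 at 0 hr and 3334 and 3463 at 12 hr, a 5.49-fold rise (log2 2.46 ± 0.11, adjusted p = 1.84e-06). AT1G23390, an F-box protein with Kelch repeats, read 398 and 353 at 0 hr and 1849 and 1945 at 12 hr, a 4.89-fold rise (log2 2.29 ± 0.09, adjusted p = 4.93e-07). For AT1G23390 the step from 6 hr did not pass (log2 -0.35, adjusted p = 0.0662).

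Of 10 measured genes in the starvation list, 5 rose and none fell, against 1.27% and 0.33% of all probe sets, and the median log2 fold change was 0.70. The 5 that rose were among 7 members already known from earlier results of these data, and none of the other 3 passed. AT3G15630, an uncharacterised gene of the list, rose 1.78-fold, from 926 and 921 to 1662 and 1642 (adjusted p = 0.00341; 0.0569 without 12 hr replicate 1). GAT1_2.1, a glutamine amidotransferase-like gene, rose from 12.6 and 38.2 to 101 and 98.7 (log2 1.56 ± 0.28, adjusted p = 0.0217). That call passed only without 0 hr replicate 2 when single arrays were left out, with adjusted p of 0.115 to 0.18 without each of the other 3. The second, dimmer probe set of GAT1_2.1 gave 0.37 and did not pass. AKINBETA1, a regulatory subunit of SnRK1, no longer passed: it read 354 and 341 at 0 hr and 455 and 461 at 12 hr (adjusted p = 0.157), after a mean of 827 at 6 hr. Listed members that did not pass also included MGL, MCCA and IVD, with log2 fold changes of -0.46, -0.22 and -0.04 (adjusted p = 0.058, 0.529 and 0.943). ATG8E gave 0.56 (adjusted p = 0.099). Outside the list, AT3G07350, another DUF506 gene, rose 2.90-fold from 219.9 and 245 to 749 and 661 (adjusted p = 7.7e-06). Also outside the list, and chosen after its values were seen, AT5G19120, an aspartyl protease-like gene, rose from 1090.2 and 1159.8 to 3087 and 3045 (adjusted p = 1.84e-06).

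**Figure D2:**
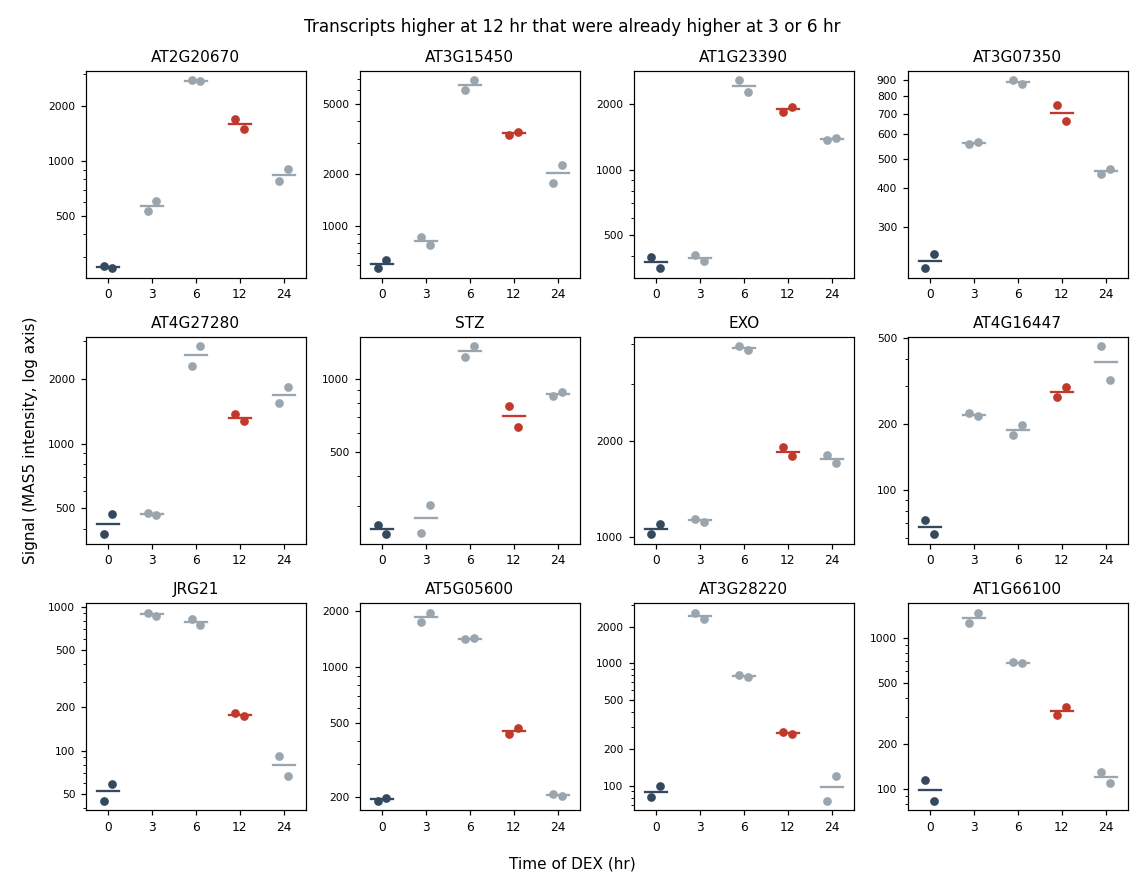
Signal of 12 genes that were higher at 12 hr and already higher at 3 or 6 hr (log axis, MAS5 intensity; points are single arrays, bars are group means, red marks 12 hr and dark blue 0 hr). The starvation genes AT2G20670, AT3G15450 and AT1G23390 peak at 6 hr, the jasmonate genes in the bottom row are highest at 3 hr, and AT4G16447 is still at 390 on average at 24 hr.

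Early-response genes of touch, calcium and defence were the next group. Such genes are induced within minutes by handling, wounding or calcium influx. AT4G27280, an EF-hand calcium-binding protein, read 378 and 469 at 0 hr and 1369.5 and 1268 at 12 hr, a 3.05-fold rise (log2 1.61 ± 0.12, adjusted p = 5.44e-05). STZ, a zinc-finger repressor of stress genes also called ZAT10, rose 2.80-fold from 251 and 229.8 to 777 and 633 (adjusted p = 0.000153). EXO, the brassinosteroid-responsive EXORDIUM protein of the cell wall, rose from 1019 and 1101 to 1907 and 1791 (log2 0.79 ± 0.07, adjusted p = 0.000153). All 3 were far below their 6 hr means of 2575, 1298 and 3898, and the fall from 6 to 12 hr passed for each (adjusted p = 0.00246, 0.00574 and 5.59e-05). At 3 hr their means were 470, 268 and 1126, and none of the 3 passed against 0 hr (adjusted p = 0.535, 0.62 and 0.536). The list had 11 measured genes, of which 4 rose (against 1.27% of all probe sets) and none fell, with a median of 0.34. EXO was the only riser among 6 members not known from earlier results. The fourth, CML38, a calmodulin-like protein, rose 2.25-fold (adjusted p = 0.0128) but passed in none of the 4 fits that left out an array of 0 or 12 hr (adjusted p from 0.0794 to 0.133). Unlike the other 3, CML38 had been called higher at 3 hr against 0 hr (log2 0.90, adjusted p = 0.0172). WRKY53, a regulator of senescence and defence, read 104 and 94.4 at 0 hr and 109 and 128 at 12 hr and did not pass, after a mean of 313 at 6 hr.

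Further regulators and defence genes that had also been called at 6 hr were chosen after their values were seen. AT5G61590, known as DEWAX, an ERF factor that represses wax synthesis, read 1468 and 1677 at 0 hr and 4118 and 4065 at 12 hr, a 2.59-fold rise (log2 1.37 ± 0.08, adjusted p = 6.59e-06). AT1G25550 and AT1G68670, also called HHO3 and HHO2, are GARP-family repressors of nitrogen-starvation genes. AT1G25550 rose from 637 and 604 to 1116 and 1005 (log2 0.76, adjusted p = 0.00153). AT1G68670 rose less, from 785 and 784 to 1007 and 1113 (log2 0.43, adjusted p = 0.0468), and passed in none of the 4 fits without an array of 0 or 12 hr (0.161 to 0.336). AT1G72900, AT1G72920 and AT1G72940, similar genes that encode TIR-domain proteins of the immune-receptor type, rose 2.45-, 1.83- and 2.25-fold (adjusted p = 9.47e-05, 0.00153 and 0.00011). Because the 3 are alike in sequence, their probe sets may share signal. Their groups did not overlap, with 0 hr arrays at 194 to 296 and 12 hr arrays at 428 to 577. AT5G60680, a senescence-regulator-like gene, read 761 and 758 at 0 hr and 2103 and 2055 at 12 hr (2.70-fold, adjusted p = 1.84e-06), and its step from a 6 hr mean of 2004 did not pass (log2 0.05, adjusted p = 0.834).

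Several jasmonate genes were still higher at 12 hr than at 0 hr, and 3 oxygenases among them were well below their earlier levels. The median log2 fold change of the whole jasmonate list did not fall from 6 to 12 hr. It was 1.89 at 3 hr, 0.88 at 6 hr and 1.06 at 12 hr. Jasmonate is the wound hormone, and the JOX oxygenases inactivate it by hydroxylation. JRG21, such an oxygenase, read 45.1 and 59.1 at 0 hr and 182 and 174 at 12 hr (log2 1.52 ± 0.16, adjusted p = 0.000455), after means of 889 at 3 hr and 784 at 6 hr. AT5G05600, another, read 191 and 196 at 0 hr and 438 and 471 at 12 hr (log2 1.17 ± 0.09, adjusted p = 3.93e-05). By 24 hr its mean was 205, and the fall from 12 hr passed (adjusted p = 0.000906). AT2G38240, of the same enzyme family, rose from 52.1 and 71 to 142 and 167 (log2 1.14, adjusted p = 0.00246). The 3 oxygenases had fallen by 2.04, 1.61 and 1.36 on the log2 scale between 6 and 12 hr (adjusted p = 9.86e-05, 1.11e-05 and 0.000726). AT3G11180, another measured oxygenase of this family, did not pass at 12 hr against 0 hr (log2 -0.10, adjusted p = 0.93).

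Of 13 measured genes in the jasmonate list, 7 rose and 1 fell, against 1.27% and 0.33% of all probe sets, with a median of 1.06, but 11 were known from earlier results and neither of the other 2 passed. AT3G28220, a TRAF-like protein, read 80.2 and 98.8 at 0 hr and 274 and 265 at 12 hr (log2 1.44, adjusted p = 0.00108) after a mean of 2448 at 3 hr. AT1G66100, a thionin-type antimicrobial peptide, rose 3.03-fold (adjusted p = 0.000153) and had a mean of 119.6 at 24 hr. THI2.2, also a thionin, was the member that fell, from 502 and 536 to 300.2 and 328 (log2 -0.70 ± 0.12, adjusted p = 0.0126), though it passed in none of the 4 fits without an array of 0 or 12 hr (0.0753 to 0.166). AT2G43590 and AT2G43620, which encode chitinases, moved in opposite directions. AT2G43590 fell from 1413 and 1319 to 833 and 877 (adjusted p = 0.0113), and AT2G43620 rose from 714 and 690.0 to 879 and 906 (adjusted p = 0.0333). Neither chitinase call survived the loss of any of the 4 arrays (0.0666 to 0.154 and 0.12 to 0.249).

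Cold-regulated genes were among the large rises of the first hours, and most of those measured did not pass at 12 hr. COR15A, a chloroplast protein that protects membranes in the cold, read 971 and 1054 at 0 hr and 1406 and 1646 at 12 hr. That difference did not pass (log2 0.58 ± 0.15, adjusted p = 0.109), whereas the fall from its 6 hr mean of 6215 did (log2 -2.01, adjusted p = 9.86e-05). LTI30, a dehydrin, read 116 and 94.1 at 0 hr and 165 and 198 at 12 hr (adjusted p = 0.064), after a mean of 1400.1 at 3 hr. The list held 8 measured cold and dehydration genes, of which 6 were known from earlier results of these data. Its median log2 fold change was 0.53 at 3 hr, 0.86 at 6 hr and 0.40 at 12 hr, against -0.03 for all probe sets at 12 hr. Both 12 hr arrays lay above both 0 hr arrays for 5 of the 8 (19.3% of all probe sets) and below them for 1 (26.4%). Only 1 of the 8 genes, a known member, was called higher, against 1.27% of all probe sets. This was AT4G33980, the clock-controlled and cold-regulated gene COR28, at 251 and 293 against 506 and 508 (log2 0.86, adjusted p = 0.0402; 0.124 to 0.265 without any of the 4 arrays).

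Among 14 measured low-oxygen genes 3 rose, against 1.27% of all probe sets, with a median of 0.26. Of these 3, 2 were known from earlier results of these data, and 1 of the other 12 members rose. AT1G33055, a small protein strongly induced under low oxygen, read 9.05 and 9.23 at 0 hr, below the 44.8 that marks the 30th percentile of signals, and 108 and 122 at 12 hr. Its log2 fold change was 2.38 ± 0.22 (adjusted p = 0.000177). The size of a change from so dim a signal depends on the offset of 16, and the step from 6 hr did not pass. CML38 and AT4G10270 were the other members that rose, and neither passed in any of the 4 fits without an array of 0 or 12 hr. Of 5 measured iron genes 2 rose, against 1.27% of all probe sets, and the list median was 0.17. Both were already known from earlier results of these data. BHLH101, a transcription factor of the iron-deficiency response, rose from 28.6 and 57 to 117 and 105 (log2 1.15, adjusted p = 0.0348), but passed only without 0 hr replicate 2 (0.17 to 0.266 without each of the others). AT5G05250, also induced when iron is short, rose from 507 and 600 to 1024 and 954 (log2 0.82, adjusted p = 0.00318; 0.0631 without 12 hr replicate 1). The other 3 genes, AT3G07720, AT1G47400 and PYE, did not pass. Outside these lists, ZCF37 and AT1G04660, also among the 12 largest rises, started below 44.8. ZCF37 rose from 22.2 and 10.1 at 0 hr to 116 and 112 at 12 hr (log2 2.04, adjusted p = 0.00455). AT1G04660 rose from 6.6 and 7.19 to 41 and 86.4 (log2 1.74, adjusted p = 0.032). Both lost their call in most fits that left out an array of 0 or 12 hr.

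Among the 34 newly called probe sets, 12 had also risen in both direct comparisons, 12 hr against 6 hr and 12 hr against 3 hr, and are called newly appeared. Against 3 hr, 6.69% of all probe sets were called, 3.94% higher and 2.75% lower at 12 hr. All 12 were higher and none was lower. These 3 comparisons share the 12 hr arrays, so a high reading on both of them would enter each. The probe table names genes for 4 of the 12. Over the 12, the median log2 fold change was -0.03 at 3 hr and 0.04 at 6 hr, against 0.61 at 12 hr and 0.16 by 24 hr.

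Of the 4 named genes, 2 are plastid-encoded photosynthesis genes. psbT, a small subunit of photosystem II, read 267 and 364 at 0 hr and 717 and 640 at 12 hr, while its means at 3 and 6 hr were 321 and 255. The rise was 2.12-fold (log2 1.08 ± 0.21, adjusted p = 0.0309). atpI, a membrane subunit of the plastid ATP synthase, read 151 and 187 at 0 hr and 337 and 310 at 12 hr, a 1.85-fold rise (log2 0.88 ± 0.15, adjusted p = 0.0161), and its means at 3 and 6 hr were 133 and 127. Both lost their call in most fits that left out an array of 0 or 12 hr: psbT in all 4 (adjusted p from 0.063 to 0.266) and atpI in 3, with 0.0401 without 0 hr replicate 2 and 0.105 to 0.194 otherwise. ndhF, a subunit of the plastid NADH dehydrogenase-like complex, was newly called without passing against 3 hr. It read 129 and 81.5 at 0 hr and 394 and 224 at 12 hr (log2 1.40 ± 0.29, adjusted p = 0.0398), so its 12 hr arrays were far apart. Without 12 hr replicate 1 its log2 fold change was 1.01. Among the fits without an array of 0 or 12 hr, ndhF kept its call only without 12 hr replicate 2.

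Few other plastid genes passed. Of 43 plastid-encoded photosynthesis genes, these 3 rose and none fell, which is 3 of 43 against 1.27% of all probe sets. Their median log2 fold change was 0.08, with 18 genes above both controls on both 12 hr arrays, against 19.3% of all probe sets, and 10 below, against 26.4%. None of 19 plastid genes for transcription and translation passed, with a median of 0.21, 9 genes above both controls on both 12 hr arrays and 1 below. The 3' labelling primes on poly(A) tails, which plastid transcripts lack as a stable feature. 5S rRNA, also without such a tail, read 124 and 143 at 0 hr and 215 and 183 at 12 hr, above its 3 and 6 hr signals of 89.8 to 122.5. 25S rRNA did not follow it, with signals of 5959 and 5835 at 0 hr and 6061 and 5341 at 12 hr. The part of tail-independent labelling in the plastid values was not tested.

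The remaining newly appeared genes were at the ends of the signal range. GSTU20, a glutathione transferase linked to glucosinolate metabolism, is very abundant and rose little, from 6930.0 and 6732 to 8629 and 8808 (log2 0.35 ± 0.07, adjusted p = 0.0295). AT3G26040, an acyltransferase of the HXXXD type, read 4.8 and 1.54 at 0 hr and 25.5 and 31.8 at 12 hr, all below 44.8, so the order of its values rests on near-background signals. Neither passed without any of the 4 arrays (0.13 to 0.216 and 0.103 to 0.237). PDF1.2, a defensin of the jasmonate and ethylene response, was newly called with signals of 68.6 and 77.7 at 0 hr and 183 and 174 at 12 hr (log2 1.13 ± 0.23, adjusted p = 0.0379). Its mean was 269 at 24 hr, and the step from 6 to 12 hr did not pass (adjusted p = 0.145). Without any of the 4 arrays PDF1.2 did not pass against 0 hr (0.142 to 0.272). Of 7 newly called falls, 6 had a named gene. CYP71B38, a cytochrome P450, fell from 43.0 and 51.5 to 9.06 and 10.7 (adjusted p = 0.0443), and AT5G01870, a lipid-transfer protein, fell from 659 and 622 to 417 and 476 (adjusted p = 0.0367). AT1G73120 fell from 1339 and 1311 to 982 and 1073 (adjusted p = 0.0309) and was the only fall that was called higher at 24 hr than at 12 hr (adjusted p = 0.0391). None of these 3 falls passed without any of the 4 arrays (0.151 to 0.281 for CYP71B38, 0.0977 to 0.322 for AT5G01870 and 0.0932 to 0.299 for AT1G73120).

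**Figure D3:**
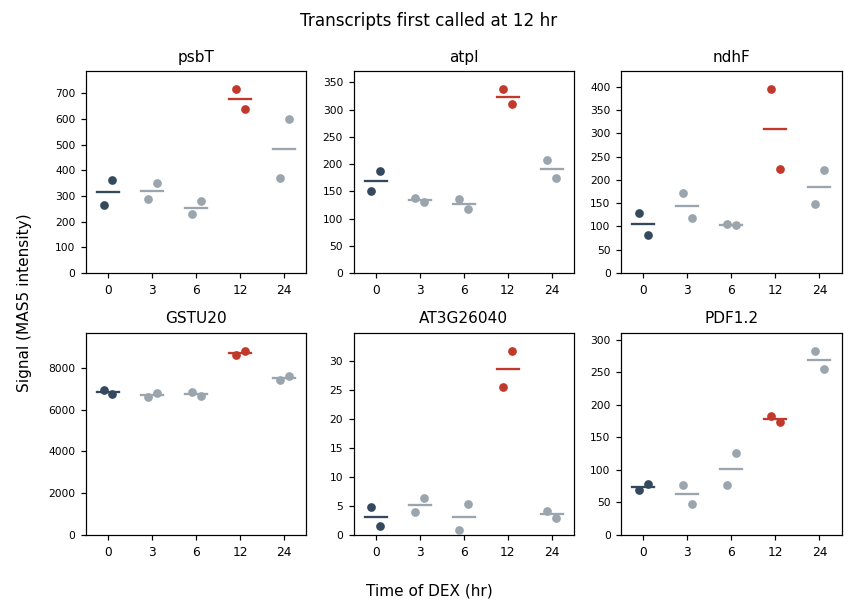
Signal of 6 genes called at 12 hr and not at 3 or 6 hr (linear axis from 0, MAS5 intensity; points are single arrays, bars are group means, red marks 12 hr and dark blue 0 hr). psbT, atpI, GSTU20 and AT3G26040 are highest at 12 hr, the 2 ndhF arrays at 12 hr lie at 394 and 224, and PDF1.2 is higher still at 24 hr.

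The 11 reversed probe sets were lower at 3 hr and higher at both 6 and 12 hr, and 4 of them had a named gene. AT5G39520, a gene without a known role, had a mean of 52.9 at 3 hr and read 129 and 122 at 0 hr and 312 and 237 at 12 hr (log2 1.03 ± 0.18, adjusted p = 0.0186). AT5G62280, also uncharacterised, read 220.5 and 224 at 0 hr and 447 and 405 at 12 hr (log2 0.89 ± 0.12, adjusted p = 0.00332; 0.0701 without 12 hr replicate 1). AT4G10270, a wound-responsive family protein of the low-oxygen list, read 248 and 255 at 0 hr and 411 and 403 at 12 hr (log2 0.66 ± 0.11, adjusted p = 0.00937). ARL, an ARGOS-like protein that promotes cell expansion, rose from 1339 and 1347 to 1822 and 1671 (log2 0.37 ± 0.08, adjusted p = 0.0475). AT5G39520 passed only without 12 hr replicate 2 (0.105 to 0.236 without each of the others), and AT4G10270 and ARL in none of the 4 fits (0.065 to 0.128 and 0.144 to 0.364).

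Cell wall genes were among the falls. Expansins loosen the wall during growth. EXPA15, an alpha-expansin, read 672 and 679 at 0 hr and 388 and 409.9 at 12 hr (log2 -0.74 ± 0.08, adjusted p = 0.00105), and its 3, 6 and 24 hr means of 565, 331 and 547 were all below the controls. EXPB3, a beta-expansin, fell from 2021 and 1911 to 1252 and 1289.99 (log2 -0.62 ± 0.08, adjusted p = 0.00281; 0.0556 without 12 hr replicate 1). GH9C2, an endoglucanase with a carbohydrate-binding module, fell from 1392 and 1466 to 909 and 884 (log2 -0.66 ± 0.09, adjusted p = 0.00265). The family list of 27 expansins and xyloglucan transferases held no rise, and the 2 expansins were its only falls. Over all probe sets, 1.27% were called higher and 0.33% lower. The list median was -0.01. None of 22 genes of the TBL family of wall acetyltransferases passed, although 9 lay below both controls on both 12 hr arrays (26.4% of all probe sets) and 1 above (19.3%).

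Other falls included light-related and metabolic genes. The 10 largest falls also held 3 genes that are not placed in either group. These were AT1G79770 (log2 -0.94, adjusted p = 0.0355), AT4G16610 (-0.90, adjusted p = 0.0445) and AT5G63460 (-0.88, adjusted p = 0.0279). These calls did not hold when any single array of 0 or 12 hr was left out. AT3G44450, known as BIC2, an inhibitor of cryptochrome blue-light receptors, read 767 and 803 at 0 hr and 468 and 477 at 12 hr (log2 -0.71 ± 0.09, adjusted p = 0.0019). It had recovered from a 6 hr mean of 219 (log2 1.06 higher at 12 hr, adjusted p = 0.00016) and stood at 476 at 24 hr. AT3G53980, a lipid-transfer-like protein, fell from 1541 and 1552 to 1019.9 and 907 (log2 -0.68 ± 0.08, adjusted p = 0.00109). ASPGB1, an asparaginase that frees nitrogen from asparagine, fell from 520.3 and 473 to 234 and 275 (log2 -0.93 ± 0.15, adjusted p = 0.0116), and LHCB4.3, an antenna protein of photosystem II, from 3809 and 3686 to 2788 and 2797 (log2 -0.42 ± 0.09, adjusted p = 0.0361). Neither ASPGB1 nor LHCB4.3 passed without any of the 4 arrays (0.0556 to 0.163 and 0.144 to 0.252). Among 8 nuclear photosynthesis genes LHCB4.3 was the only fall, against 0.33% of all probe sets. PORB, a protochlorophyllide reductase of chlorophyll synthesis, was the only rise, against 1.27%. It went from 5999.7 and 5345 to 8009.7 and 8677 (adjusted p = 0.00824). PORB passed only without 0 hr replicate 1 (0.054 to 0.115 without each of the others). BGLU19, a beta-glucosidase, read 33.9 and 52.1 at 0 hr and 2.14 and 2.53 at 12 hr (adjusted p = 0.00544) and was the only fall also lower than at 6 hr, at signals near background on all but 1 array. It passed only without 0 hr replicate 1 (0.0574 to 0.0691 without each of the others).

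**Figure D4:**
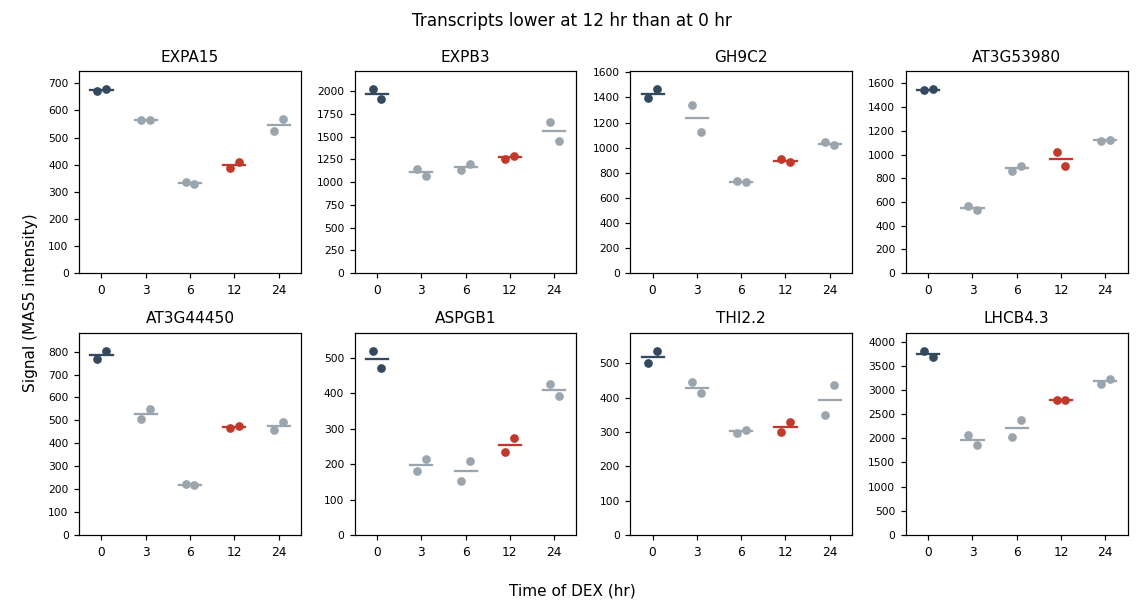
Signal of 8 genes called lower at 12 hr than at 0 hr (linear axis from 0, MAS5 intensity; points are single arrays, bars are group means, red marks 12 hr and dark blue 0 hr). In every panel both 12 hr arrays lie below both controls, and AT3G44450 is lowest at 6 hr, at a mean of 219.

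All 7 measured flavonoid genes lay lower at 12 hr than at 0 hr, though most did not pass. AT4G14090, a glucosyltransferase of anthocyanin synthesis, read 3666 and 3621 at 0 hr and 2458 and 2563 at 12 hr (log2 -0.53 ± 0.10, adjusted p = 0.0232; 0.128 to 0.222 without any of the 4 arrays). DFR, which makes leucoanthocyanidins, read 5108 and 4937 at 0 hr and 4117 and 3981 at 12 hr (adjusted p = 0.0686), and the flavonoid glucosyltransferase UGT78D2 read 2243 and 2118 at 0 hr and 1641 and 1624 at 12 hr (adjusted p = 0.0662). All 7 measured genes of the list were below both controls on both 12 hr arrays, against 26.4% of all probe sets. Their median was -0.30 against -0.03. At 3, 6 and 24 hr it was -0.35, -0.08 and -0.01. Of the 7, 3 were known from earlier results of these data. Of 3 measured glucosinolate genes 1, already known from earlier results of these data, rose, against 1.27% of all probe sets. This was UGT74B1, which glucosylates the glucosinolate precursor and went from 1400.3 and 1516 to 2123 and 2206 (log2 0.57, adjusted p = 0.00687). Outside the list, AT2G25450, an oxygenase of glucosinolate side-chain modification, rose from 3319 and 3179 to 4511 and 4345 (adjusted p = 0.0125). UGT74B1 passed only without 0 hr replicate 2 (0.0716 to 0.0977 without each of the others), and AT2G25450 in none of the 4 fits (0.0743 to 0.163).

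**Figure D5:**
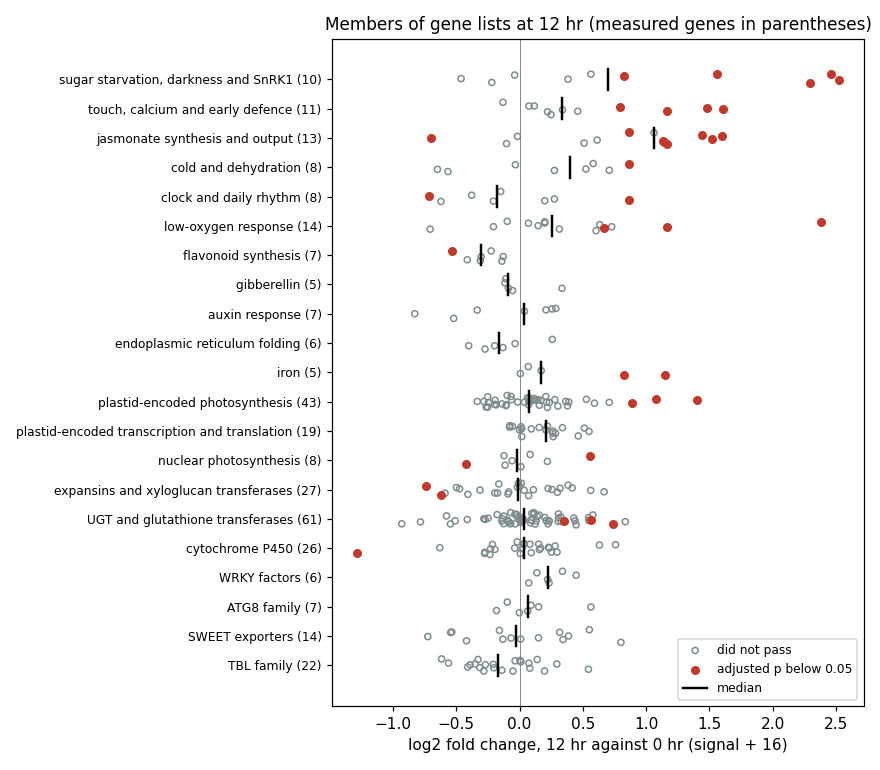
Log2 fold change at 12 hr against 0 hr of each measured gene in the 21 lists with at least 5 measured genes (numbers in parentheses; filled red points passed at an adjusted p below 0.05, black bars are medians). Medians are highest for the jasmonate (1.06) and starvation (0.70) lists, and all 7 flavonoid genes lie left of 0.

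None of the 4 measured genes tied to SHR in the root passed at 12 hr. AT5G41920, the SHR-binding GRAS protein SCL23, read 166 and 182 at 0 hr and 176 and 164 at 12 hr (log2 -0.03 ± 0.14). JKD, a zinc-finger partner of SHR, read 13.9 and 49.9 at 0 hr and 34.4 and 59.7 at 12 hr, near background. The other measured members, AT3G45260 and SLY2, gave 0.02 ± 0.23 and -0.12 ± 0.23. No gene passed among 5 gibberellin, 7 auxin, 6 endoplasmic reticulum folding, 6 WRKY, 7 ATG8 and 14 SWEET genes. Of 61 sugar- and glutathione-transferase genes 3 rose (1.27% of all probe sets) and none fell, and of 26 cytochrome P450 genes 1 fell (0.33%). Most lists had few measured genes, because 110 of the 429 loci in them had a named probe set.

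The number of calls fell when any 1 of the 4 arrays was left out. With replicate 1 of 0 hr left out there were 141 calls, 137 of them among the 364, and with replicate 2 of 0 hr left out 146, of which 132 were shared. Dropping replicate 1 of 12 hr gave 102 calls (98 shared), and dropping replicate 2 of 12 hr gave 120 (118 shared). Each such fit leaves a group with a single array, whose spread is taken from the other groups. A call could be lost with little change in level. The log2 fold change of AT4G10270 was 0.66 over all arrays and 0.65 without 12 hr replicate 1. That of ndhF moved more, from 1.40 to 1.01. The genes described above that passed in all 4 included AT2G20670, AT3G15450, AT1G33055, AT1G23390, AT4G27280, STZ, EXO, JRG21, AT5G05600 and AT3G28220. They also included AT5G61590, EXPA15, GH9C2, AT3G44450, AT3G53980, AT1G66100, AT2G38240 and AT3G07350. AT4G16447, an uncharacterised gene that read 72.1 and 62.2 at 0 hr and 267 and 297 at 12 hr (log2 1.84 ± 0.17, adjusted p = 0.000159), also passed in all 4 and had a mean of 389.9 at 24 hr.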

How the data were processed

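RNA of whole shoots was labelled from 300 ng of total RNA with a 3' IVT kit and hybridised to ATH1 arrays, per the labels' protocols. Per the submitters' processing notes, the deposited intensity values are linear MAS5 signals from Affymetrix Expression Console 1.1. The background correction and scaling target are not given in the sources used here, and detection calls were not used. All 10 arrays had trimmed means of 500, so they had been scaled before deposition.

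Of 22810 probe sets, 64 controls were set aside. The probe table names 1 gene for 13513 of the tested probe sets, several for 503 and does not list 8730. Current symbols came from the TAIR10.1 reference, for names only. A gene with several probe sets was read from the brightest.

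The fit (limma 3.58.1, R 4.3.3) took log2 of the signal plus 16, with 1 mean per group over all 10 arrays and variances moderated with an intensity trend (5 residual and 5.86 prior degrees of freedom). Tests were two-sided with Benjamini-Hochberg adjustment over 22746 probe sets and a threshold of 0.05. With 2 arrays against 2, an exact permutation test can reach no p below 0.333, so none was made. The scripts were checked on simulated data. The number of arrays limits the precision.

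A 12 hr call was reversed if called in the opposite direction at 3 or 6 hr, whatever the other time showed. Of the rest, it was carried over if called in the same direction at 3 or 6 hr, and newly called if at neither. It had newly appeared if it also passed, in the same direction, against 3 and 6 hr.

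The genes and lists were chosen with earlier results of these data known. The rule named the 12 largest rises and 10 largest falls among called single-gene probe sets above the 30th percentile of signal with groups that did not overlap, newly appeared, reversed and carried-over genes, the 4 largest steps from 6 hr, and up to 4 called members of each list. Further genes were named after their values were seen: AT5G61590, AT1G25550, AT1G68670, AT1G72900, AT1G72920, AT1G72940, AT5G19120, AT5G60680, AT2G43620, AT2G25450, PDF1.2, AT1G73120, AT5G01870, BGLU19, AT3G26040, and list members such as AT3G15630, AKINBETA1, WRKY53, COR15A, LTI30, DFR, UGT78D2, EXPA7, AT5G41920 and AT3G45260. Promoter motifs were planned and not run, since no promoter sequences were used here. Replicate numbers were not used to pair the arrays in the main fit, as described with the alternatives. Alternatives were other offsets, scalings, filters, variance models and left-out arrays.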

Additional observations from a re-analysis of the deposited data

Results flagged for a closer look

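For 3 newly appeared genes the change against 0 hr differed between 6 and 12 hr. The log2 difference of 12 hr minus 6 hr was 1.36 for psbT, 1.25 for atpI and 0.37 for GSTU20. Newly appeared genes were chosen for passing this very comparison, so the values describe the choice and are no further test. AT3G26040, of the same class with signals near background, gave 1.23, and ndhF, which did not pass against 3 hr, gave 1.39.

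For 4 reversed genes the change against 0 hr was downward at 3 hr and upward at 12 hr. The log2 difference of 12 hr minus 3 hr was 2.08 for AT5G39520, 1.42 for AT5G62280, 1.104 for AT4G10270 and 0.97 for ARL. These genes were chosen for calls of opposite direction at the 2 times, so these values too are a description. No cause was tested for either set.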

How the results depend on the processing

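The counts varied most when an array was left out and with the model of the spread. With any 1 of the 10 arrays left out, calls against 0 hr ran from 102 to 414, higher calls from 89 to 320 and lower calls from 11 to 94. Calls of 12 hr against 6 hr ran from 146 to 591, against 3 hr from 520 to 1639, and of 24 hr against 12 hr from 2 to 65. Carried-over calls ran from 96 to 363, newly called from 3 to 37, newly appeared from 0 to 10 and reversed from 2 to 15.

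Without an intensity trend the calls were 129 (111 higher, 18 lower), against 6 hr 177, against 3 hr 765 and 24 hr against 12 hr 1, with 119 carried over, 8 newly called, 2 newly appeared and 2 reversed. Without the lowest 30% of probe sets they were 556 (140 lower), with 50 for 24 hr against 12 hr, 489 carried over and 17 reversed. With the 4 arrays of 0 and 12 hr alone, 49 were lower. Offsets of 1 and 64 gave 412 and 332 calls, and quantile and common-median scaling 369 and 360. None of the 73 named genes called at 12 hr changed sign under these alternatives or with an array left out. Their results were weaker for 41 of the 73 without an intensity trend, and for 28 with the 4 arrays of 0 and 12 hr alone. AT2G38240, for example, had a limma adjusted p of 0.0711 with those 4 arrays.

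Replicate numbers showed little shared effect between groups. The 10 correlations between groups of the difference of replicate 1 and replicate 2 ran from -0.04 to 0.09. Such values cannot show whether arrays of the same number were grown or handled together. With the replicate number as a block there were 318 calls, 303 of them among the 364, and 14 for 24 hr against 12 hr. The cause of these shifts was not tested. Signals below 44.8 limit what can be said of dim transcripts.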

Other observations

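Genes of cell division and heat response, which the report leaves aside, did not pass at 12 hr. The mitotic kinases AUR1 and AUR2 read 497 and 383 on 0 hr replicate 1, 519 and 407 on 0 hr replicate 2, 450 and 331 on 12 hr replicate 1, and 473 and 326 on 12 hr replicate 2 (limma adjusted p = 0.577 and 0.409). AT1G53540, a small heat shock protein, read 16.0 and 38.1 at 0 hr and 65.2 and 75.1 at 12 hr (log2 1.05 ± 0.25, adjusted p = 0.0784), and had fallen by 1.204 on the log2 scale from 6 hr (adjusted p = 0.0334). The cytokinin response regulator RR16 read 476 and 485 at 0 hr and 436 and 439 at 12 hr (adjusted p = 0.552).

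OBE1, a PHD-finger protein of meristem maintenance, and ATPMEPCRB, a pectin methylesterase, were chosen after their values were seen. OBE1 rose from 211 and 205 to 340.5 and 315 (log2 0.62 ± 0.11, adjusted p = 0.0193), and passed in none of the 4 fits without an array of 0 or 12 hr (0.0962 to 0.222). ATPMEPCRB rose from 171 and 140.3 to 288 and 266 (log2 0.78 ± 0.13, adjusted p = 0.0157) and passed only without 0 hr replicate 1 (0.0977 to 0.187 without each of the others). AT3G46600, a GRAS-family protein of another branch than SHR, rose from 217 and 265 to 403 and 383 (log2 0.68 ± 0.11, adjusted p = 0.0114) after a 6 hr mean of 638, and passed only without 0 hr replicate 2 (0.0921 to 0.157 without each of the others).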
